A study of Mus musculus with 6 samples.

Results

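The genes expressed in the control cranial base of the mouse at E15.5, a stage counted in days of gestation, were ranked from the RNA of 3 embryos. An entry of the deposited table was a member of this landscape where its mean over the 3 libraries was at least 1 FPKM (fragments per kilobase of transcript, scaled to the depth of the library) and none of the 3 held a code made of nines in place of a value. Of 43496 entries 15709 were members, 36.1% of the 43488 entries without the code. The 8 entries with it, among them Trip12, Kmt2d, Peg10 and Kctd12, were left out. Each embryo was of the C57BL/6J strain, gave 1 library and carries the genotype label Control. The sources used here do not say whether a control was wild type or carried 1 copy of the mutant allele. The study set them against 3 embryos with a Memo1 allele made with the chemical mutagen ENU, and those libraries enter no value given here. The titles of controls 2 and 3 share their opening word and that of control 1 differs, without a stated meaning.

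The cranial base is the floor of the skull, on which the brain rests and from which the face hangs. Its front part comes from neural crest and its back part from mesoderm. Both are laid down as cartilage, which is later replaced by bone in endochondral ossification: chondrocytes enlarge, their matrix mineralizes, and osteoclasts and osteoblasts then remodel it. The pituitary sits on its upper face, the otic capsules lie at its sides, and the pharynx, nasal passages and head muscles adjoin it from below.

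Where 3 values follow a gene, they are its FPKM in controls 1, 2 and 3, in that order, and errors are SD over these embryos (n = 3). FPKM is scaled to transcript length, so levels of different genes can be set side by side. It is also scaled to the library, so a value is a level relative to the other transcripts of that embryo. In bulk tissue fewer cells of a type and less RNA per cell cannot be told apart. An exact 0 may be a failed estimate, because all 37 entries of the mitochondrial genome were listed at 0 in all 3 libraries. Genes with near-identical copies (ribosomal proteins, globins, Bglap and Bglap2, processed pseudogenes) or with an overlapping neighbour are uncertain, since the sources used here do not say how shared fragments were assigned. The members summed to 513452, 516804 and 518690 FPKM. From the steps between low values, controls 2 and 3 held 80.2% and 93.4% of the fragments of control 1. Across members the log2(FPKM + 1) values of any 2 libraries correlated at r = 0.978 to 0.979, a description across genes, which are not independent.

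A small number of transcripts made up much of the total. The median member was at 10.9 FPKM (interquartile range 4.03 to 26.2 FPKM). A level of 10 FPKM was reached by 8195 members, 100 FPKM by 823 and 1000 FPKM by 39. The 10 most abundant entries held 6.65% ± 0.367 of the summed FPKM, the 25 most abundant 11% ± 0.348 and the 100 most abundant 22.9% ± 0.576. The 1000 most abundant held 54.3% ± 0.770, and 90% of the total was reached with 6662 entries. At the other end 18471 entries were listed at 0 in all 3 libraries. Just inside the threshold lay Zfp804a at 1.08, 1.16 and 0.761 FPKM and Gm19086 at 1.31, 0.948 and 0.74 FPKM, and just outside it Etohd2 at 0.981, 1.11 and 0.903 FPKM and Rpsa-ps4 at 0.934, 1.16 and 0.9 FPKM.

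**Figure D1:**
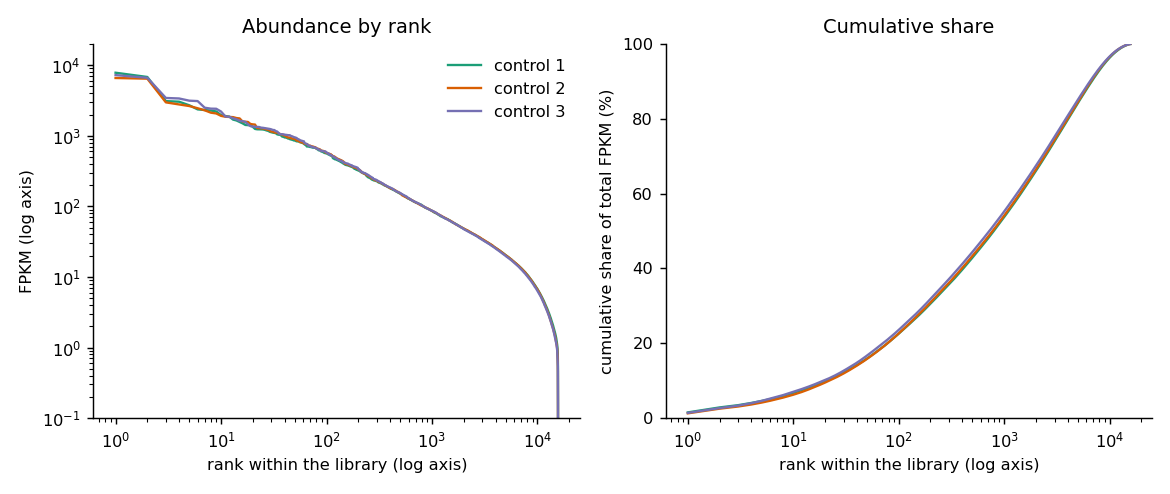
Left, FPKM of each member against its rank within its own library, both axes logarithmic. Right, the cumulative share of the summed FPKM in percent against the same rank. Each line is 1 control embryo, and the 3 lines lie almost on each other, with 22.9% of the total reached by the 100 most abundant entries.

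Genes of protein synthesis and imprinted genes of growth stood at the top of the ranking. Eef1a1, the elongation factor that carries aminoacyl-tRNA to the ribosome, was the most abundant entry at 7832, 6590.2 and 6639 FPKM, and control 1 was the highest. H19, an imprinted non-coding RNA, followed at 6816, 6450.2 and 7244 FPKM. Igf2, the imprinted growth factor whose gene lies next to H19, ranked 3 at 3102, 2976 and 3437 FPKM. For both control 3 was the highest and control 2 the lowest. These 3 entries alone made up 1.36% ± 0.143, 1.32% ± 0.0743 and 0.614% ± 0.0442 of the summed FPKM.

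The tissue already showed in the 25 most abundant entries. Mylpf, a myosin light chain of fast skeletal muscle, ranked 6 at 2278, 2299 and 3105 FPKM, with control 3 apart from the other embryos. Col2a1, the main collagen of cartilage, ranked 12 at 1569.8, 1764 and 2207 FPKM and was also highest in control 3. Col3a1, a fibrillar collagen of soft connective tissue, ranked 19 at 1099, 1593 and 1612 FPKM, with control 1 the lowest. Sparc, a matrix glycoprotein of bone and connective tissue, ranked 9 at 2368, 1917 and 2416 FPKM, with control 2 the lowest. Hbb-bs, an adult beta globin of red blood cells, ranked 17 at 1502, 1579 and 1270.2 FPKM, with control 3 the lowest. Dlk1, an imprinted membrane protein of the Notch ligand family found on many progenitors, ranked 16 at 1251, 1571 and 1575 FPKM. Among the remaining entries were the chaperone Hspa8 at 1889 ± 64.6 FPKM, the ribosome-associated Gnb2l1 at 1439.7 ± 23.7 FPKM, the selenoprotein Selm at 1278 ± 49.8 FPKM, the cytoplasmic actin Actb at 1250.3 ± 30.9 FPKM and the lectin Lgals1 at 1241 ± 97.1 FPKM. Cytosolic ribosomal proteins took 9 of the 25 places: Rpl41, Rpl13a, Rplp1, Rps15a, Rplp0, Rps15, Rpl32, Rps9 and Rps26, from 2943 FPKM for Rpl41 down to 1323 FPKM for Rps26. The last 2, Gm14303 and Gm12338, were processed pseudogenes.

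**Figure D2:**
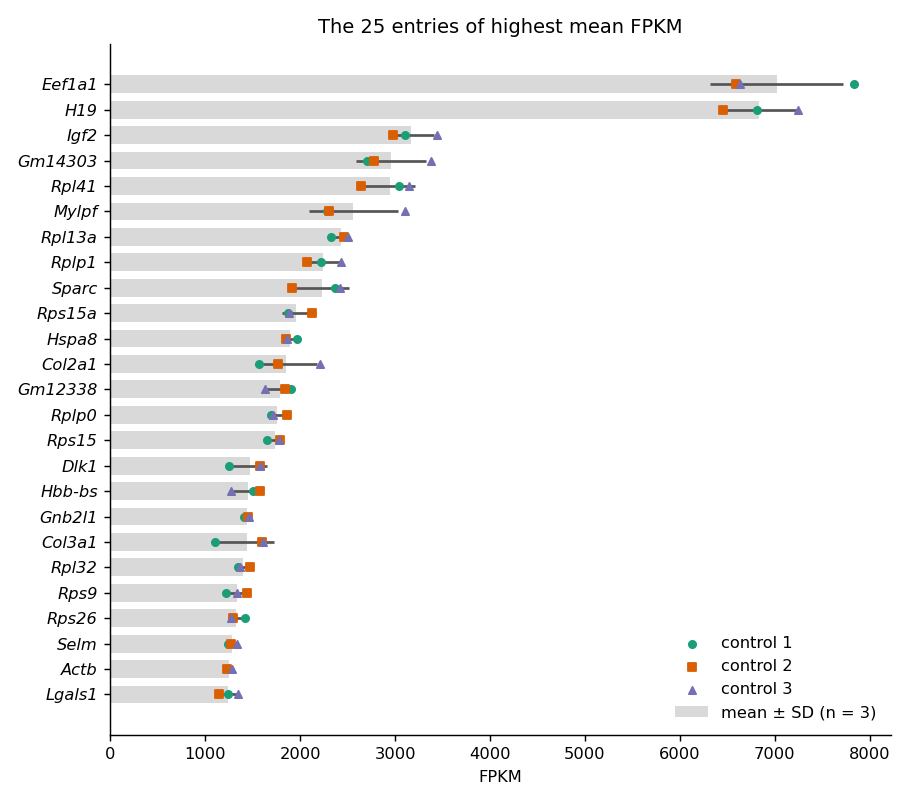
The 25 entries of highest mean FPKM, with FPKM on a linear axis from 0. Bars are means and lines SD over 3 embryos, and points are single embryos. Eef1a1 and H19 stand far to the right of all others, and Mylpf and Col2a1 have their highest point in control 3.

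By function, cytosolic ribosomal proteins formed the group of largest share among the lists examined. Of 89 matched entries 86 were members, with a median of 205 FPKM against 10.9 FPKM over all members, and together they held 7.53% ± 0.214 of the total. The 5 elongation factor genes held 1.84% ± 0.124. Eef2, the factor that moves the ribosome along the mRNA, was at 974, 1114 and 1049 FPKM. The nuclear genes of oxidative phosphorylation held 2.27% ± 0.0644, with 78 of 82 entries as members. Among them Atp5b, the catalytic subunit of ATP synthase, was at 911, 929.8 and 986 FPKM, and Cox6b1 and Cox6a1, subunits of cytochrome oxidase, were at 477 ± 5.13 FPKM and 377 ± 33.8 FPKM. The 10 genes of actin, tubulin and their partners held 1.24% ± 0.0326, led by Actb, the intermediate filament Vim at 997 ± 104 FPKM and Actg1 at 728 ± 46.1 FPKM. Glycolysis genes held 0.508% ± 0.0225, led by Aldoa at 613 ± 55 FPKM and Tpi1 at 498 ± 18.9 FPKM. Gapdh was at 17.9 ± 4.76 FPKM, Pgk1 at 16.3 ± 3.14 FPKM and Pgam1 at 10.7 ± 1.16 FPKM. A share with pseudogene copies added was not computed for this list or for oxidative phosphorylation.

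Imprinted genes of growth control held 2.83% ± 0.123 of the total, most of it in H19, Igf2 and Dlk1. Of 16 entries matched 15 were members, with a median of 336 FPKM against 10.9 FPKM over all members. Cdkn1c, the cyclin-dependent kinase inhibitor p57, was at 672, 759.95 and 908 FPKM, and Mest was at 674, 716 and 736 FPKM. Meg3, a non-coding RNA of the Dlk1 region, was at 332, 369 and 355 FPKM. In these 3 the embryos differed by less than 1.5 times, which was not so for Nnat, treated with the differences between embryos. Genes of dividing cells were present in every embryo: all 19 of the cell cycle list were members, at a median of 35.8 FPKM. Their summed level spread by only 1.24% (coefficient of variation) between embryos. Cdk1, the mitotic kinase, was at 160.3, 142 and 154 FPKM, and Top2a, which untangles DNA before division, at 92.7, 102 and 84.4 FPKM. Of the immediate early genes, which many tissues switch on when handled, 11 of 12 were members, at a median of 10.6 FPKM against 10.9 FPKM over all members. Fos was at 6.1, 6.77 and 8.1 FPKM and Egr1 at 11.5, 10.2 and 10.2 FPKM. Histone cluster genes, whose replication-linked transcripts lack a poly(A) tail, had 8 of 70 entries as members, led by Hist1h2bc at 24.9 ± 4.71 FPKM.

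Protein-coding entries made up 13567 of the members and 86.6% ± 0.0821 of the summed FPKM. Members were 63.1% of the 21511 protein-coding entries, the background for the counts of members in each list. The 136 lincRNA entries held 1.79% ± 0.0955, most of it H19. Processed pseudogenes, copies of mRNAs put back into the genome, were 1453 members and held 10.6% ± 0.0658. Of these, 1264 aligned to the transcript of a coding gene at a median identity of 97.4%, and these 1264 carried 97.8% of the pseudogene FPKM. Copies of ribosomal protein genes were 375 of them and carried 51.4% of the FPKM of the aligned copies. Added to their parent genes, they raised the ribosomal share from 7.53% to 12.8%. In 196 of the 719 families at 10 FPKM or more, the copies were listed above the parent. Rps29, a ribosomal protein, was listed at 8.73, 4.87 and 6.95 FPKM and its 6 copies at 3021, 2942 and 3538 FPKM, nearly all of it in Gm14303. Cox7c, a subunit of cytochrome oxidase, was at 32.1, 31.6 and 22.5 FPKM and its 2 copies at 1911, 1842 and 1633 FPKM, nearly all in Gm12338. Gapdh, a glycolytic enzyme often used as a reference gene, was at 20.7, 12.4 and 20.6 FPKM, and its 32 copies summed to a mean of 65.6 FPKM. For such families the value of a single entry is uncertain. The sums add FPKM of entries of unlike length, with Gm14303 annotated at 171 bases and Gm12338 at 192. Whether a sum gives the level of the parent was not tested.

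CG dinucleotides were counted in the promoters, as a description without a test. RefSeq promoters of build GRCm38.p6, 250 bases before to 50 bases after a start, were matched by symbol to 10507 of 15684 member symbols. The dinucleotide CG, counted as these 2 letters, which read the same on both strands, occurred a median of 20 times in the promoters of members and 7 times over the genes of the whole table. In the 202 members of the tissue lists with a promoter the median was 6, and in the 10024 coding members in no tissue list it was 20.5. Ribosomal protein genes had a median of 22, cell cycle genes 24.5, macrophage genes 3, bone genes 5, skeletal muscle genes 6 and cartilage genes 9.5. The tissue lists were not uniform, since the few promoters of hypertrophic cartilage had a median of 14.5, those of brain progenitors 21.5 and those of meninges 23. Those of the cranial mesenchyme transcription factors had 25. The 250 bases before the start are shown with CG in capitals for the most abundant gene with a single promoter in each of 7 lists, ordered by that count. The counts in these windows were 1 for Mylpf, 2 for Hbb-bs, 2 for Ibsp, 4 for Prrx1, 9 for Col9a2, 12 for Rpl41 and 18 for Eef1a1. All are RefSeq sequences of GRCm38.p6, read on the strand of the gene.
Mylpf (fast muscle myosin light chain, chr7:127211358-127211607, plus strand): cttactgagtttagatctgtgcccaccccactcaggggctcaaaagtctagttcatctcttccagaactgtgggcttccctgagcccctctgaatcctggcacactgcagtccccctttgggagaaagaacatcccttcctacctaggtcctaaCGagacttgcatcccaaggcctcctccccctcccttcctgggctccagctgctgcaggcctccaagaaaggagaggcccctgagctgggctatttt
Hbb-bs (beta globin, chr7:103827929-103828178, minus strand): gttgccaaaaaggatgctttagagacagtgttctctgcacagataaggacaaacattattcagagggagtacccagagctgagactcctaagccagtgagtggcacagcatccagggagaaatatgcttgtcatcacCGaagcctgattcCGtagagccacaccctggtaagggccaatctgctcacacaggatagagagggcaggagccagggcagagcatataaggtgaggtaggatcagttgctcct
Ibsp (bone sialoprotein, chr5:104299037-104299286, plus strand): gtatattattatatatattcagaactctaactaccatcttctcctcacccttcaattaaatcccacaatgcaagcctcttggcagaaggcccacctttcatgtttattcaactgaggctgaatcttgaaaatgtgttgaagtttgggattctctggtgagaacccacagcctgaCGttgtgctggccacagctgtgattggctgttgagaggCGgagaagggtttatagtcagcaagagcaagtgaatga
Prrx1 (homeobox factor of cranial mesenchyme, chr1:163313651-163313900, minus strand): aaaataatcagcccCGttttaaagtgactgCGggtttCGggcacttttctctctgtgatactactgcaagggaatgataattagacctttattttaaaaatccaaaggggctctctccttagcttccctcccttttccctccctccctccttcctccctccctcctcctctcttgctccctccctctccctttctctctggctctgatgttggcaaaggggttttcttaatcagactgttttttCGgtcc
Col9a2 (cartilage collagen, chr4:121039316-121039565, plus strand): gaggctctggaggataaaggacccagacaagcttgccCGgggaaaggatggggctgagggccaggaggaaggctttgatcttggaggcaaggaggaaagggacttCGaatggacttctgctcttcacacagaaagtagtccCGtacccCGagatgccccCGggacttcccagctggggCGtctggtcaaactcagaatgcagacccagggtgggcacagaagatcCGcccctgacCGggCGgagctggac
Rpl41 (ribosomal protein, chr10:128549169-128549418, minus strand): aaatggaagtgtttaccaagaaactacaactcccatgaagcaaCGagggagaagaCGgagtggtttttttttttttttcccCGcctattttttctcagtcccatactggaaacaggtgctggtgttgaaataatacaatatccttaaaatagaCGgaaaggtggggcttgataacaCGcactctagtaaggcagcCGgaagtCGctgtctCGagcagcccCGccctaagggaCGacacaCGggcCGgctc
Eef1a1 (elongation factor, chr9:78481725-78481974, minus strand): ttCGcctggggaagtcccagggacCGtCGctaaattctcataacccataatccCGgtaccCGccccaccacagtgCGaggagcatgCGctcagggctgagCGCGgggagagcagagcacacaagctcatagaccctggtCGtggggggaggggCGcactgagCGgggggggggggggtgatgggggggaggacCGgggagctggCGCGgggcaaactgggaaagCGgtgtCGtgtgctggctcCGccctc

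The motif TATAAA was also searched, on the strand of the gene 50 to 10 bases before the start. At least 1 promoter held it in 2.89% of the 27025 genes of the table and in 1.88% of the 10507 members with a promoter. Taken anywhere in the 300 bases and on either strand it was in 13.6% of all 32851 promoters. It holds no C or G, so it cannot overlap a CG. Shares by rank are over the coding members with a promoter. Of the 100 most abundant, 71 had a promoter and 4 of these held the motif near the start (5.63%). For the 900 after them it was 18 of 694 (2.59%), for the next 3999 34 of 3114 (1.09%) and for the remaining 8560 132 of 6349 (2.08%). These are matches of letters in a window, not measured sites.

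Over all 15709 members, 37.0% were highest in control 1, 37.0% in control 2 and 26.0% in control 3, and 30.2%, 27.9% and 41.8% were lowest in controls 1, 2 and 3. The counts of genes highest or lowest in an embryo, given below for several lists, stand against these shares.

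The tissue named is the cranial base, which is laid down as cartilage, and the whole cartilage marker list was present. All 25 genes were members, 11 of them at 100 FPKM or more, with a median of 78.0 FPKM, and they held 1.25% ± 0.166 of the summed FPKM. Collagen IX, which coats the type II fibrils, was abundant in all its chains: Col9a3 was at 705, 758 and 1018 FPKM, Col9a2 at 464, 566 and 697 FPKM and Col9a1 at 377, 435 and 466 FPKM. All of these were highest in control 3 and lowest in control 1. Lect1, chondromodulin, a cartilage glycoprotein that hinders vessel growth, was at 568, 555 and 623 FPKM, and Matn1, a matrilin of mature cartilage, at 234, 267 and 284 FPKM. Acan, the core protein of the main cartilage proteoglycan, was at 75.5, 72.5 and 86 FPKM. Of the transcription factors of chondrocytes, Sox9, which sets their fate, was at 22.3, 26 and 25 FPKM, and its partners Sox5 and Sox6 were at 10.6, 8.99 and 9.77 FPKM and 8.5, 8.17 and 8.33 FPKM. For these 3 the embryos lay within 1.2 times of each other. Over the list, 20 of 25 genes were highest in control 3, as 26.0% of all members were, and the summed level was 5694, 6218 and 7429 FPKM.

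Chondrocytes on the way to bone were also represented. All 7 genes of the hypertrophic list were members, with a median of 36.6 FPKM. Col10a1, the collagen made by hypertrophic chondrocytes, was at 306, 407 and 436 FPKM, lowest in control 1. Ihh, the ligand by which prehypertrophic cells set the pace of growth, was at 15, 19.2 and 19.7 FPKM, and Pth1r, the receptor that holds chondrocytes back from hypertrophy, at 85.9, 78.7 and 93.6 FPKM. Mmp13, a collagenase that clears the matrix ahead of bone, was at 27, 19 and 33.3 FPKM, lowest in control 2. The ligands Gdf5, of forming joints, and Pthlh, which acts on Pth1r, were at 7.07, 5.98 and 6.17 FPKM and 4, 5.39 and 4.78 FPKM.

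Bone genes were present, led by Ibsp and Spp1. Of 17 bone genes 16 were members, at a median of 20.3 FPKM, and they held 0.291% ± 0.0521 of the total. Ibsp, bone sialoprotein, was far above the others at 878, 531 and 771 FPKM, and Spp1, osteopontin, was at 302, 273 and 385 FPKM. Alpl, the phosphatase needed for mineral, was at 106, 94.2 and 99.5 FPKM, Sp7, the osteoblast transcription factor osterix, at 46.5, 34.4 and 42.3 FPKM and Runx2, which acts before it, at 26.8, 25.3 and 22.2 FPKM. Ifitm5 and Phospho1 lay above Sp7 and Runx2, at 104, 64.3 and 86 FPKM and 82.3, 59.1 and 91.8 FPKM. Several genes of late osteoblasts and osteocytes were lower than Runx2. Bglap, osteocalcin, was at 3.89, 2.78 and 4.78 FPKM, Dmp1, of young osteocytes, at 14.6, 13.5 and 19.1 FPKM, Sost, the osteocyte inhibitor of Wnt signalling, at 1.51, 0.6 and 1.14 FPKM and Mepe, below the threshold, at 0.91, 0.162 and 0.788 FPKM. In 14 of the 16 members control 2 was the lowest, as it was in 27.9% of all members, and the summed level was 1683, 1198 and 1635 FPKM. Osteoclast genes had 9 of 13 as members, near the 63.1% of all coding entries. Ctsk, cathepsin K, was at 81, 59 and 77.9 FPKM, Mmp9, a gelatinase, at 26, 19.4 and 31.3 FPKM and Acp5, the acid phosphatase that marks these cells, at 19.9, 12.6 and 18 FPKM, and all 3 were lowest in control 2. This held for 6 of the 9, and Nfatc1, Clcn7 and Tnfrsf11a were lowest in control 1. The fusion genes Dcstamp and Ocstamp stayed under 1 FPKM in every embryo.

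The fibroblast and perichondrium list had the other large share among the skeletal lists. All 16 of its genes were members, with a median of 171 FPKM, and held 1.12% ± 0.129 of the total. Bulk values cannot say which tissue this RNA came from, and the part of bone in the type I collagen chains was not tested. Col1a1 and Col1a2, the chains of type I collagen, were at 1037, 899.7 and 1354 FPKM and 1036, 916 and 1249.7 FPKM, in both highest in control 3 and lowest in control 2. Postn, a matricellular protein of periosteum and ligament, was at 617, 556 and 612 FPKM. Pdgfra, the growth factor receptor that marks mesenchyme, was at 44.5, 49 and 44 FPKM. All 7 tendon and ligament genes were members, among them Tnmd, tenomodulin, at 22.8, 25.2 and 24.5 FPKM, and Scx, the transcription factor of tendon progenitors, at 10.2, 12.3 and 15.8 FPKM. The small leucine-rich proteoglycans were all members, led by Bgn at 609 ± 32.1 FPKM, Lum at 233 ± 10.4 FPKM and Fmod at 186 ± 32.6 FPKM.

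Counted as a family, 39 of 44 collagen chain genes were members, 20 of them at 100 FPKM or more, with a share of 2.04% ± 0.283. Control 3 was the highest for 31 of the 39, against 26.0% of all members. Collagen transcripts are long, and after each entry was multiplied by the length of its longest annotated transcript (a weighting chosen after seeing the data), the family held 3.89% of the total and the ribosomal protein genes 3.96%. The median annotated length was 3079.5 bases over members and 1511 bases over the 100 most abundant. The longest annotated transcript need not be the one expressed. Rps15a was weighted by 5179 bases, against a median of 1045 over the ribosomal protein genes, and its share rose from 0.379% to 0.724%.

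Growth factor signalling was represented on both sides. All 26 ligand genes were members, and Igf2 stood far above the next, Igf1 at 91.2 ± 3.58 FPKM. Tgfb3 was at 52.1 ± 1.64 FPKM and Gdf10, a ligand of the BMP family, at 50.8 ± 3.13 FPKM. Without Igf2 no ligand reached 100 FPKM, and the median of the list was 14.5 FPKM. The 23 receptor genes were all members too, at a median of 31.9 FPKM. Fgfr1 was at 109, 119 and 127 FPKM, Fgfr2 at 64.7, 56.7 and 59.9 FPKM and Fgfr3, which restrains chondrocyte division, at 42.7, 46.7 and 55.8 FPKM. Smo, the Hedgehog signal transducer, was at 61.9 ± 2.95 FPKM, and Ptch1, the Hedgehog receptor and target, at 31.9 ± 1.65 FPKM.

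Transcription factors of the cranial mesenchyme were present in every embryo. All 22 genes of the cranial mesenchyme list were members, at a median of 10.3 FPKM. Prrx1 was at 75.5, 75.6 and 67.9 FPKM, Prrx2 at 67.8, 53.8 and 65.2 FPKM and Twist1 at 45.7, 42.3 and 47.7 FPKM. These are homeobox and basic helix-loop-helix factors of craniofacial mesenchyme. Msx1 was the least even of the named ones, at 10.9, 4.96 and 3.25 FPKM, highest in control 1. Of 7 factors of somites and sclerotome, from which the back of the skull floor and the vertebrae arise, 6 were members, among them Pax9 at 16.9 ± 0.792 FPKM and Pax1 at 13.3 ± 2.6 FPKM. Hox genes, which mark position along the body axis from the hindbrain level downward, were low. In groups 1 to 5, 9 of 15 genes were members, led by Hoxa2 at 6.34, 7.27 and 7.56 FPKM and Hoxb2 at 4.97, 5.52 and 7.05 FPKM. In groups 6 to 9 only 1 of 12 was, Hoxd8 at 2.88, 4.82 and 3.95 FPKM, and in groups 10 to 13 none of 12, of which 9 were listed at 0 in all 3 libraries.

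Skeletal muscle had the largest summed FPKM of the 32 tissue lists, which differ in size. Of 25 genes listed 24 were matched, and Acta1 had no matched entry without the code, so the share leaves it out. All 24 matched genes were members, 16 at 100 FPKM or more, with a median of 159 FPKM and a share of 1.54% ± 0.269. Actc1, the actin of embryonic muscle, was at 858, 891 and 1164 FPKM, Tnnc2, the troponin C of fast fibres, at 544, 654 and 869 FPKM and Ckm, muscle creatine kinase, at 312, 290.4 and 479 FPKM. Myh3, the embryonic myosin heavy chain, was at 148, 199 and 230.3 FPKM, and Myh8, the perinatal one, at 59.2, 80.8 and 103 FPKM. Myog, the factor of differentiating myoblasts, was at 86.4, 103 and 114 FPKM, and Pax7, of muscle stem cells, at 1.89, 3.21 and 3.48 FPKM. In 23 of the 24 genes control 3 was the highest and in 19 control 1 the lowest, against 26.0% and 30.2% of all members, with summed levels of 6917, 7344 and 9577 FPKM. Muscle transcripts are short, and weighted by transcript length the share of the list was 0.913%. That was below the 2.35% of fibroblasts and perichondrium and the 1.80% of cartilage. Under this weighting, which takes the longest annotated transcript of each entry, muscle no longer ranked first. Of 15 fat genes 10 were members, near the share of all coding entries, at a median of 10.4 FPKM. Car3, a carbonic anhydrase of fat and muscle, was at 297, 336 and 362 FPKM, Fabp4, the fatty acid binding protein of adipocytes and capillaries, at 69, 89.4 and 90.5 FPKM and Adipoq, adiponectin, at 22, 30.7 and 29.1 FPKM, each lowest in control 1. Lep, leptin, did not exceed 0.0392 FPKM in any embryo.

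**Figure D3:**
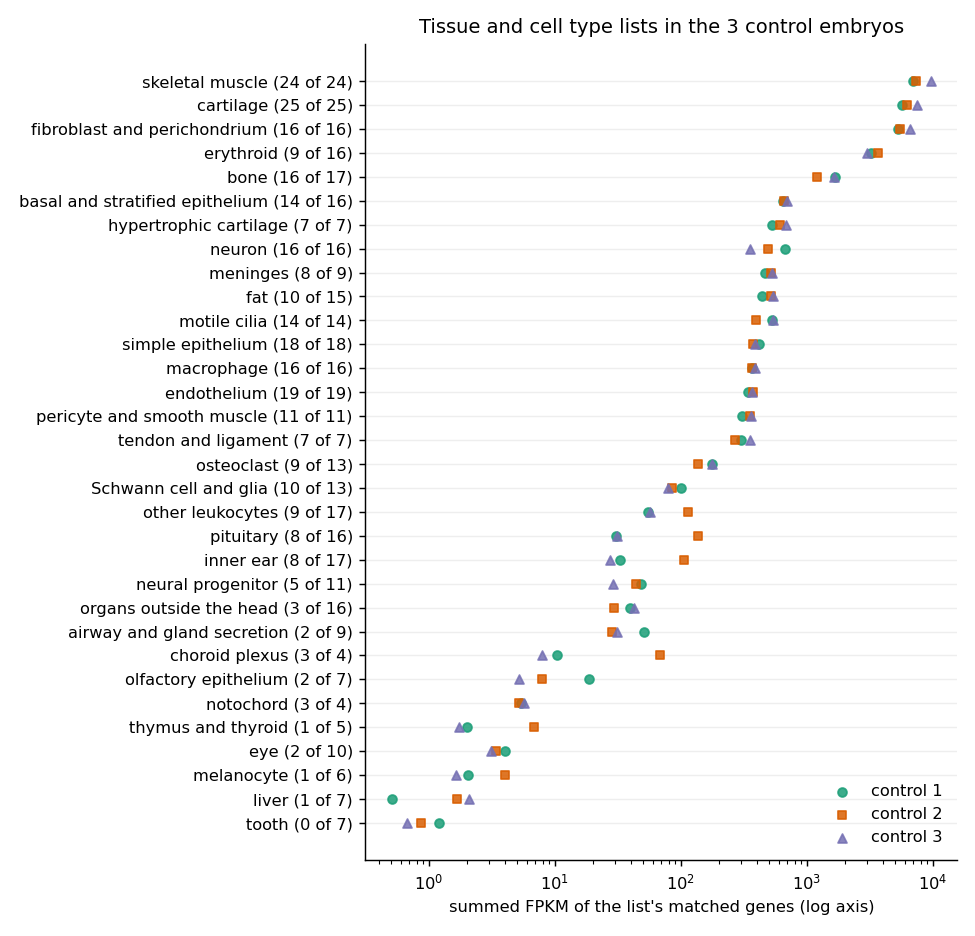
Summed FPKM of the matched genes of each of the 32 tissue and cell type lists, on a log axis, with 1 point for each embryo. Numbers in brackets are members out of matched genes. The embryos nearly coincide for some lists, such as macrophage and basal epithelium, and lie further apart for others, such as neuron. Control 2 stands to the right for pituitary, inner ear and choroid plexus, in the last mostly through the gene Ttr. It does so also for thymus and thyroid, other leukocytes and melanocyte.

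Genes of blood and vessels were present in every embryo. Globins made up nearly all of the erythroid share of 0.639% ± 0.0637. Hbb-bs and Hbb-bt, the adult beta globins, were at 1450.3 and 446 FPKM in the mean, Hba-a1 and Hba-a2, the alpha globins, at 725 and 633 FPKM, and the embryonic Hbb-y and Hba-x at 13.2 and 7.01 FPKM. The nuclear factors of early erythroid cells stayed under 1 FPKM, Gata1 at 0.337, 0.189 and 0.214 FPKM and Klf1 at 0.265, 0.75 and 0.515 FPKM. All 19 endothelial genes were members, at a median of 15.6 FPKM, with Cdh5, the cadherin of endothelial junctions, at 45.1, 52.7 and 50.1 FPKM and Pecam1 at 35.7, 39.5 and 36.8 FPKM. Lyve1 and Prox1, of lymphatic vessels, were at 10.01, 10.2 and 12.4 FPKM and 2.4, 3.24 and 2.43 FPKM. The 19 endothelial genes summed to 338, 377 and 366 FPKM, and 16 of them were lowest in control 1, as 30.2% of all members were. All 11 genes of pericytes and smooth muscle were members, with Acta2, smooth muscle actin, at 150.1, 179.7 and 189 FPKM.

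Macrophage genes were the highest of the white cell genes. All 16 of them were members, at a median of 15.9 FPKM, and the sum of 364, 364 and 385 FPKM was among the steadiest of the tissue lists. C1qb, a complement subunit, was at 49.8, 52.6 and 59.9 FPKM and Csf1r, the receptor for their growth factor, at 16, 16 and 18 FPKM. Mast cell proteases were lower, Cma1 at 8.16, 12.6 and 15.8 FPKM and Cpa3 at 5.55, 10.3 and 11.1 FPKM, both lowest in control 1. The neutrophil genes S100a9 and S100a8 were at 17, 33.4 and 5.96 FPKM and 8.9, 29.9 and 5.93 FPKM, in both highest in control 2, as were Ngp and Camp. Of the lymphocyte genes of the list Cd79b, a subunit of the B cell receptor, was a member at 1.71, 1.41 and 1.93 FPKM, and its partner Cd79a was below the threshold at 0.306, 0.7 and 0.383 FPKM. The T cell gene Cd3e was at 0.0519, 0 and 0.0278 FPKM, and the B cell gene Ms4a1 was listed at 0 in every library.

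Epithelia of several kinds came with the dissection. Of 16 genes of basal and stratified epithelium 14 were members, and their sum was even, at 651, 655 and 694 FPKM. Krt15, a keratin of basal cells, was at 271, 295 and 288 FPKM, Krt5 at 95, 83.8 and 93.8 FPKM and Krt14 at 57.8, 57.6 and 59.1 FPKM. Krt4 and Krt13, keratins of moist lining epithelium, were at 19, 22.1 and 26.1 FPKM and 44.2, 42.4 and 64.9 FPKM. Krt1 and Lor, of cornifying skin, were below the threshold at 1, 0.677 and 1.09 FPKM and 0.407, 0.152 and 0.413 FPKM. Krt10, also of cornifying skin, was a member. All 18 genes of simple epithelium were members, with Krt19 at 98.4, 93.1 and 99 FPKM, Krt8 at 71, 63.3 and 75.6 FPKM and the adhesion molecule Epcam at 19.2, 23.2 and 13.2 FPKM. All 14 genes of motile cilia were members as well, at a median of 18.7 FPKM. Foxj1, the master factor of motile cilia, was at 64.1, 50.4 and 66.7 FPKM, and Rsph1, a radial spoke protein, at 48.1, 32.5 and 43.3 FPKM. Each of the 14 was lowest in control 2, as 27.9% of all members were, with summed levels of 531, 397 and 543 FPKM. Of 9 genes of airway and gland secretion only Bpifa1, a secreted protein of nasal and airway lining, at 28.7, 14.5 and 12.5 FPKM and Reg3g, a secreted lectin, at 20.5, 12.1 and 17.3 FPKM were members, both highest in control 1. Scgb1a1, of lung club cells, was listed at 0 in all 3.

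Most neuron genes were highest in control 1. All 16 matched neuron genes were members, at a median of 18.2 FPKM against 10.9 FPKM over all members, and their sum was 670.3, 492 and 354 FPKM. Stmn2, a microtubule regulator of growing axons, was at 140.2, 98.1 and 79.2 FPKM, Gap43, of growth cones, at 108, 100.1 and 77.2 FPKM and Prph, the intermediate filament of peripheral neurons, at 103, 63.4 and 43.7 FPKM. Nefm, a neurofilament subunit, was at 54.5, 32.4 and 18.5 FPKM. In 14 of the 16 genes control 1 was the highest and in all 16 control 3 the lowest, against 37.0% and 41.8% of all members. Schwann cell genes followed with 10 of 13 as members, S100b, a calcium-binding protein of glia and cartilage, at 35.6, 28.3 and 33.1 FPKM and Sox10, a factor of neural crest and glia, at 8.77, 10.6 and 7 FPKM. Of 11 markers of brain progenitors 5 were members, led by Fabp7, a fatty acid binding protein of radial glia, at 24.1, 22.4 and 15.4 FPKM and Sox2, a factor of neural and epithelial progenitors, at 11.1, 10.8 and 9.68 FPKM, both highest in control 1 and lowest in control 3. The other 6 were under the threshold, with Hes5 at 0.748, 1.06 and 0.375 FPKM and Neurog2 listed at 0. Meningeal genes had 8 of 9 as members, led by Ptgds, prostaglandin D synthase, at 322, 355 and 391 FPKM. Of 4 genes of the notochord, around which the back of the cranial base forms, 3 were members, beside 63.1% of all coding entries. Foxa2 was at 2.85, 1.86 and 2.88 FPKM, T, brachyury, at 0.903, 1.99 and 1.74 FPKM and Shh at 1.63, 1.34 and 1.07 FPKM. Noto was listed at 0 in all 3 libraries.

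Other tissues were absent or nearly so. No tooth gene of 7 was a member, and the enamel matrix gene Ambn, the highest, was at 0.778, 0.824 and 0.604 FPKM. Of 7 liver genes only Apoa2 was, at 0.375, 1.19 and 1.89 FPKM, and Alb, albumin, did not exceed 0.109 FPKM. Among 16 genes of heart, lung, kidney, gut, pancreas and testis 3 were members, Myl2, a myosin light chain of heart and slow muscle, at 32.4, 25.1 and 36.7 FPKM, Sftpc, a surfactant protein, at 3.83, 1.53 and 3.36 FPKM and Cpa1, a pancreatic protease, at 1.66, 0.579 and 0.801 FPKM. Ins1, Ins2, Umod, Slc12a1 and Tnp1 were listed at 0 in all 3 libraries. Of 10 eye genes 2 were members, the lens crystallins Crybb1 at 1.84, 1.23 and 1.26 FPKM and Cryaa at 1.53, 1.14 and 1.32 FPKM. Of 6 melanocyte genes only Mitf was, at 1.35, 1.41 and 0.954 FPKM.

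The embryos resembled each other closely for most genes. Among 8194 members at 10 FPKM or more and above 0 in every library, the median coefficient of variation was 7.32% (interquartile range 4.47% to 11.4%), and in 65.6% the highest embryo was within 1.2 times of the lowest. Only 100 of them, 1.22%, differed by 2 times or more. Among those of the smallest spread were Ap3b1, an adaptor subunit of vesicle sorting, at 16.7, 16.6 and 16.6 FPKM, Wnt5b, a Wnt ligand of cartilage, at 12, 12 and 12 FPKM, Hadh, an enzyme of fatty acid oxidation, at 72.5, 72.6 and 72.4 FPKM and Preb at 62.5, 62.2 and 62.3 FPKM. Among those of the largest spread were Oc90, Ttr, Pomc, Efcab10, Scg2, S100a8, Gstm1 and Nnat.

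**Figure D4:**
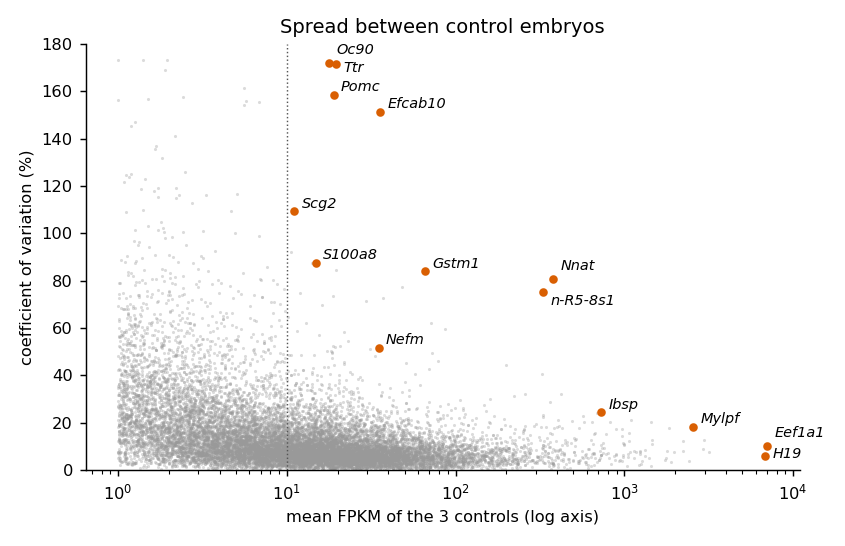
Coefficient of variation over the 3 embryos in percent against mean FPKM on a log axis, with 1 grey point for each member. Named genes are in orange, and the dotted line marks 10 FPKM. Most members above that line lie near 7.32%, and Oc90, Ttr, Pomc and Efcab10 lie above 150%.

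Genes of the anterior pituitary were detected in control 2 far above the other controls. The 16 genes of the list summed to 30.4, 137 and 31.4 FPKM, and without control 2 the share of the members fell from 0.0123% to 0.00575%. Pomc, the precursor of ACTH, was at 1.71, 53.7 and 1.53 FPKM. Cga, the shared alpha subunit of the glycoprotein hormones, was at 0.594, 15.6 and 0.636 FPKM, and Tshb, the beta subunit of thyrotropin, at 0.0901, 16 and 0.675 FPKM. Control 2 was thus the only embryo in which any of these 3 exceeded 2 FPKM. The same held for 2 transcription factors of hormone cells, Pou1f1 at 0, 6.84 and 0 FPKM and Lhx3 at 0.018, 4.99 and 0 FPKM. Lower down, Tbx19 and Gh were listed at 2.02 and 0.423 FPKM in control 2 and at 0 in controls 1 and 3. The list was not uniform: Lhb, the beta subunit of luteinizing hormone, was even at 6.65, 5.59 and 5.23 FPKM, Pitx1, which marks the mouth and face as well, was even at 9.55, 11.3 and 9.18 FPKM, and Fshb was listed at 0 in every library.

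Cga, Tshb, Pou1f1 and Lhx3 passed the threshold only through control 2, so the members of the list are no independent sample of it and no share of them is given for a motif. For 5 members of the list, chosen after their values were seen, the 60 bases before the start are shown on the strand of the gene with TATAAA in capitals, so that the even gene and the uneven ones can be set side by side.
Pomc (chr12:3954885-3954944, plus strand): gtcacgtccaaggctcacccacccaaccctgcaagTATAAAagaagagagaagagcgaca
Cga (chr4:34893719-34893778, plus strand): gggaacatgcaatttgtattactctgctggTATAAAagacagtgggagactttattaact
Tshb (chr3:102782715-102782774, minus strand): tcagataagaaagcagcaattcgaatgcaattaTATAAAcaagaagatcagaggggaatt
Pou1f1 (chr16:65520452-65520511, plus strand): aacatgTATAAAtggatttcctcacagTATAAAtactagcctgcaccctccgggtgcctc
Lhb (chr7:45420886-45420945, plus strand): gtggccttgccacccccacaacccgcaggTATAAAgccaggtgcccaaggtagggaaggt
The motif began 25 bases before the start in Pomc, 30 in Cga, 27 in Tshb and 31 in Lhb. Pou1f1 holds it at 2 places, the outer one beginning 54 bases before the start, and its second promoter and both of Lhx3 hold none in this window. These are matches of letters and say nothing of binding.

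Several inner ear genes and Ttr of the choroid plexus list were also high in control 2. Oc90, the main protein of the ear stones, was at 0.16, 53 and 0.075 FPKM, and Tectb and Tecta, of the membrane over the hair cells, were at 0.0771, 5.64 and 0.0165 FPKM and 0.196, 4.24 and 0.0874 FPKM, and these 3 passed the threshold only through control 2. Otor, a cartilage-type protein of the ear capsule, was at 0.943, 19.2 and 0.459 FPKM. Over the 17 inner ear genes the sums were 33.1, 107 and 27.4 FPKM. The hair cell genes Myo7a and Pou4f3 were less uneven or ordered otherwise: Myo7a was at 6.49, 7.27 and 6.15 FPKM, highest in control 2 by a small margin, and Pou4f3, highest in control 1, at 1.9, 0.444 and 0.207 FPKM. Ttr, transthyretin, the main secreted protein of the choroid plexus, was at 0.252, 58.3 and 0.169 FPKM, whereas Clic6 of the same list was at 8.84, 6.86 and 5.79 FPKM. The 4 genes of that list summed to 10.4, 68.5 and 7.89 FPKM, and most of the sum in control 2 was Ttr. The thyroid gene Tg, thyroglobulin, was at 1.24, 3.94 and 0.933 FPKM. In the same embryo 14 of 16 bone genes, 6 of 9 osteoclast genes and 14 of 14 motile cilia genes were the lowest. The part that neighbouring tissue had in any of these differences was not tested.

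**Figure D5:**
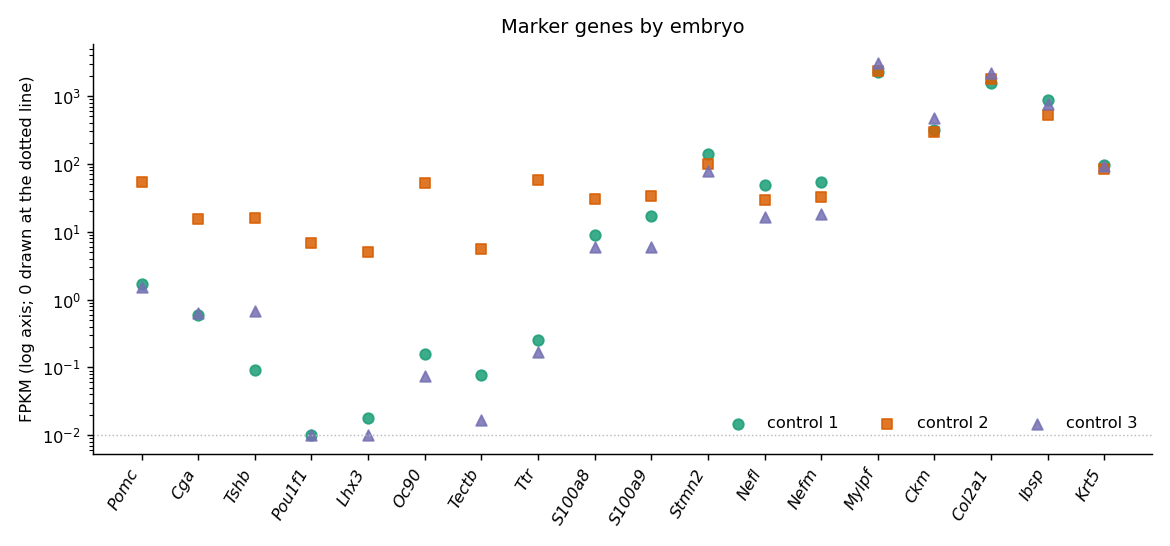
FPKM of 18 marker genes in each embryo on a log axis, with values of 0 drawn at the dotted line. Control 2 is high for the pituitary and inner ear genes from Pomc to Tectb and for Ttr of the choroid plexus. Control 1 is high for Stmn2, Nefl and Nefm, and the embryos nearly coincide for Krt5.

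Some differences were of single genes. A rule set after the values were seen took members at 5 FPKM or more in 1 embryo and at least 3 times the level in either other. Of the 15709 members, 13567 of them protein-coding, it took 28 in control 1, 22 in control 2 and 18 in control 3. Of these, 7, 15 and 1 were protein-coding. In control 2 these included Efcab10, an EF-hand protein, at 4.67, 98.7 and 4.35 FPKM, Scg2, a granule protein of endocrine cells and neurons, at 5.22, 25.1 and 3.04 FPKM and Gata3, a transcription factor of ear and other tissues, at 1.63, 10.7 and 2.58 FPKM. Nnat, neuronatin, an imprinted gene of brain and pituitary, was also highest there at 243, 728 and 164 FPKM, a little under that rule. In control 1 they included Gstm1, a glutathione transferase, at 129, 42 and 26.5 FPKM, Ugt2a1, an enzyme of the olfactory lining, at 16.1, 1.09 and 0.0734 FPKM and Lhx2, a transcription factor of forebrain and olfactory neurons, at 11.8, 2.74 and 0.681 FPKM. The olfactory markers Gng13 and Omp were highest in control 1 as well, at 9.51, 3.64 and 2.2 FPKM and 1.93, 0.515 and 0.194 FPKM, and the 7 genes of that list summed to 18.5, 7.87 and 5.19 FPKM. In control 3 the coding one was Chic2 at 2.98, 2.88 and 14.6 FPKM, and n-R5-8s1, a ribosomal RNA entry, was at 188, 186 and 618 FPKM. The remaining 16 of control 3 were small RNAs, antisense RNAs, pseudogenes or unmatched entries, 13 of them listed at 0 in both other embryos. Members at least 3 times lower in 1 embryo, with both others at 5 FPKM or more, were 6 in control 1, 7 in control 2 and 7 in control 3.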

How the data were processed

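RNA of the cranial base of 3 control embryos was described from 1 deposited table of FPKM values, 1 column for each library. Its headers do not name the unit, and FPKM was inferred from the values and from Cufflinks, which the submitters' processing notes name without a version, with the build mm9. For the aligner, the annotation and the filters the sources used here give nothing. Per the labels' protocols, tissue was kept in RNAlater until the genotype was known, then total RNA was made into Illumina libraries.

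Members were the entries at 1 FPKM or more in the mean of the 3 controls. Shares are of the summed FPKM of members in the same library. Replicates are separate embryos by their labels, numbered in accession order. No 2 libraries were copies: at most 0.00637% of members had equal values above 0. With 1 group there is no contrast and no test. Depth was read from genes under 0.1 FPKM in control 1, where ratios gathered within 2% of 1 value for 239 genes of control 2 and 267 of control 3, and depth in fragments is not known. Gene types and transcript lengths came from GENCODE M21 by gene ID, which 15614 of 15709 members matched, and parents of processed pseudogenes from blastn 2.17.0 at 90% identity over 80% of the copy. Promoters came from RefSeq, with GRCm38.p6 coordinates. No coordinates of the deposited table were used. Python 3.11.15, pandas 2.3.3, numpy 2.4.6 and matplotlib 3.10.9 were used, and the calculation was tested on simulated data.

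The members and the 52 gene lists, some of which share genes, were chosen with earlier results of these data known. Genes were named by a rule: the 25 most abundant, the 4 highest of each list, defining markers at 0, the 12 largest and 12 smallest coefficients of variation at 10 FPKM or more, and the entries beside the threshold. Of these only some are printed, a few genes are not reported here, and other named genes were chosen for their known roles after their values were seen. In 21 members the symbol had been turned into a date, as in 15-Sep. Alternatives were other filters, coding members only, each library left out, copies added to parents and weighting by transcript length.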

Additional observations from a re-analysis of the deposited data

How the results depend on the processing

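No paired analysis was possible because no result comes from a test and only 1 group was described. Of 219 alternative values 28 moved beyond a limit. For shares the limit was 1 SD over the embryos, and for counts of entries it was 1.5 times. For the median coefficient of variation and the mean correlation it was 1 SD over the pairs of libraries. The other 191 stayed within these limits. The landscape held 43488 entries without a filter in place of 15709, 17283 at 0.5 FPKM and 11059 at 5 FPKM. Over coding members only, whose total is smaller by construction, shares were 1.44% for cartilage, 1.29% for fibroblasts, 0.738% for erythroid genes, 0.149% for basal epithelium, 8.65% for ribosomal proteins, 2.35% for collagens and 1.66% for imprinted genes, which lose H19. Weighted by transcript length, an alternative chosen after seeing the data, they were 1.80% for cartilage, 2.35% for fibroblasts, 0.235% for bone, 0.913% for muscle, 0.154% for erythroid genes, 0.0873% for basal epithelium, 3.96% for ribosomal proteins, 3.89% for collagens and 3.68% for imprinted genes. With pseudogene copies added to their parents, also chosen after seeing the data, the ribosomal share was 12.8%. The median coefficient of variation of 7.32% was 9.56% at 1 FPKM or more, 6.45% at 50 FPKM or more, and 5.72% to 6.23% with 1 embryo left out, since 2 values spread less than 3. The mean correlation of 0.978 was 0.959 with a pseudocount of 0.1. Of the 25 most abundant entries 23 to 25 remained with 1 embryo left out, 22 over coding members, 21 with copies added and 10 with length weighting. The pituitary share rested on control 2 (0.00575% without it and 0.0159% without either other embryo).

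Precision is limited by the 3 embryos and by a depth known only relative to control 1, so no counting interval is given for any level or share.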

Other observations

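The 2 groups of genes below, which stood out in the ranking, are given here as values, with lists written after these values were seen. Selenoproteins, enzymes and secreted or membrane proteins that carry selenocysteine, held 1.77% ± 0.0409 of the summed FPKM. All 23 matched genes of 24 were members, and 8 ranked among the 100 most abundant entries. Their median was 255 FPKM, against 12.3 FPKM over all coding members, and 15 of them reached 100 FPKM, as 5.15% of coding members did. Selm was at 1278 ± 49.8 FPKM, 15-Sep, whose symbol had been turned into a date, at 1149 ± 59.2 FPKM and Sepw1 at 1147 ± 90.6 FPKM. 2700094K13Rik, the clone name of selenoprotein H, was at 758.3 ± 72.1 FPKM. Sepn1, a selenoprotein of the endoplasmic reticulum, was at 691 ± 24.6 FPKM and the thioredoxin reductase Txnrd1 at 649 ± 72.2 FPKM. The glutathione peroxidases Gpx7 and Gpx8, which hold cysteine in place of selenocysteine, were at 70.2 ± 0.951 and 113 ± 7.37 FPKM. The sources used here do not say how the annotation treats selenocysteine codons, and its part in these levels was not tested.

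Genes that fold, modify and trim collagen were high beside the collagens themselves. All 22 of the list were members, with a median of 70.6 FPKM against 12.3 FPKM over coding members, and their share of 0.803% ± 0.0318 varied less between embryos than that of the collagen chains. Serpinh1, the collagen chaperone HSP47, was at 1229, 1188 and 1233 FPKM, P4hb, a subunit of prolyl 4-hydroxylase, at 859.5, 850.3 and 951 FPKM and Ppib, a prolyl isomerase, at 540.3, 511 and 549 FPKM. Lox, which crosslinks collagen outside the cell, was at 115, 107 and 129.6 FPKM. The embryos lay closer together for each of these than for Col2a1 or Col1a1. Each was highest in control 3, as Col2a1 and Col1a1 were.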
